A study of Mus musculus with 6 samples.

Results

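Nppa, Nppb, Adm, Apln and Aplnr encode 4 peptide hormone precursors that act on vessels and heart and the receptor of 1 of them, and all 5 were taken by name from the 7101 genes deposited. RNA-seq had been run on 6 libraries whose label is embryo, at E12.5 (mid-gestation, while organs form), of the strain C57BL/6N. There were 3 libraries of lnc956 knockout, which lacks a long noncoding RNA, and 3 of wild type. No further allele or agent is named in the labels, and genotypes are taken from them, as lnc956 itself was not analysed here. The labels do not say if replicates are different embryos or litters, so the spread that p-values are set against may be technical. Levels are given as FPKM (fragments per unit of transcript length, scaled to the mapped fragments of a library), a unit inferred from the software named by the submitters, since the table's header names none.

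Natriuretic peptides are released by heart muscle and act through receptors that make cyclic GMP, which relaxes vessels and promotes salt loss. Nppa encodes the atrial and Nppb the B-type peptide. Adm encodes adrenomedullin, a vasodilator that acts through the receptor Calcrl joined to a Ramp protein and that mouse embryos need for normal vessels. Apln encodes apelin, and Aplnr is its G protein-coupled receptor, which also binds Elabela and takes part in heart and vessel formation. Adm and Apln are both known to be induced by low oxygen.

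The genes of the table appear to have been chosen for a difference between these same genotypes, on grounds the labels do not give, and other genes were not analysed here. Of the 6487 genes tested with limma, 96.4% had an adjusted p under 0.05 by Benjamini-Hochberg (47.2% higher and 49.2% lower in knockout). Against that, 3 of the 5 genes passed, Adm higher and Nppa and Aplnr lower, while Nppb and Apln did not. For the same 3 genes the libraries of the genotypes did not overlap, against 95.6% of the whole table. A call is therefore ordinary among these genes. Only genes that reached 1 FPKM in 3 or more libraries were tested. A gene under 1 FPKM in every library of 1 genotype could thus be tested only if higher in the other. Log2 changes are knockout minus wild type of log2(FPKM + 1), on which changes of low genes come out too small. The median over all genes tested was 0.38, but 0.01 with quantile normalization and 0.67 with trimmed-mean rescaling. Depth in reads is not given. Relative to replicate 1 of the same genotype, the step between low values put the depth of replicates 2 and 3 at 1.08 and 1.03 in knockout and at 0.93 and 1.06 in wild type.

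The tissue markers of these libraries differed with genotype. Their counts stand against 47.2% higher and 49.2% lower in knockout among all genes tested. Of the 11 tested trophoblast and placenta markers 10 were higher in knockout and Phlda2 did not pass (log2 change 1.57, and 2.98 with limma adjusted p = 0.003 without knockout replicate 2). The summed level of the 13 with values was 14896 to 35706 FPKM in knockout and 61.8 to 77.7 FPKM in wild type. Of 16 decidua markers (the decidua is the uterine lining remodelled in pregnancy) 15 were higher and Igfbp1 did not pass (log2 change 0.02, and −1.33 with limma adjusted p = 0.00508 without knockout replicate 3), with sums of 10063 to 12141 FPKM in knockout and 133 to 168 FPKM in wild type. All 7 tested nerve markers were lower, with sums of 5.90 to 21.1 FPKM in knockout and 739 to 781 FPKM in wild type. By these sums, the libraries labelled as knockout embryo held few nerve transcripts and many of placenta and decidua. The counts say less, as the minimum for testing fixed the direction of some markers. Stmn2, Nefl, Nefm, Elavl3 and Map2 were under 1 FPKM in every knockout library. Prl3d1, Prl2c2, Prl7d1, Tpbpa, Ctsj and Ascl2, and the decidua markers Pgr, Erv3 and Bmp8a, were under 1 FPKM in every wild-type library. The genotype and a difference in the tissue sampled cannot be told apart in these libraries, for any result below. In such bulk samples, fewer cells of a type and less RNA per cell cannot be told apart. The part of these tissue differences in the results below was not tested.

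**Figure D1:**
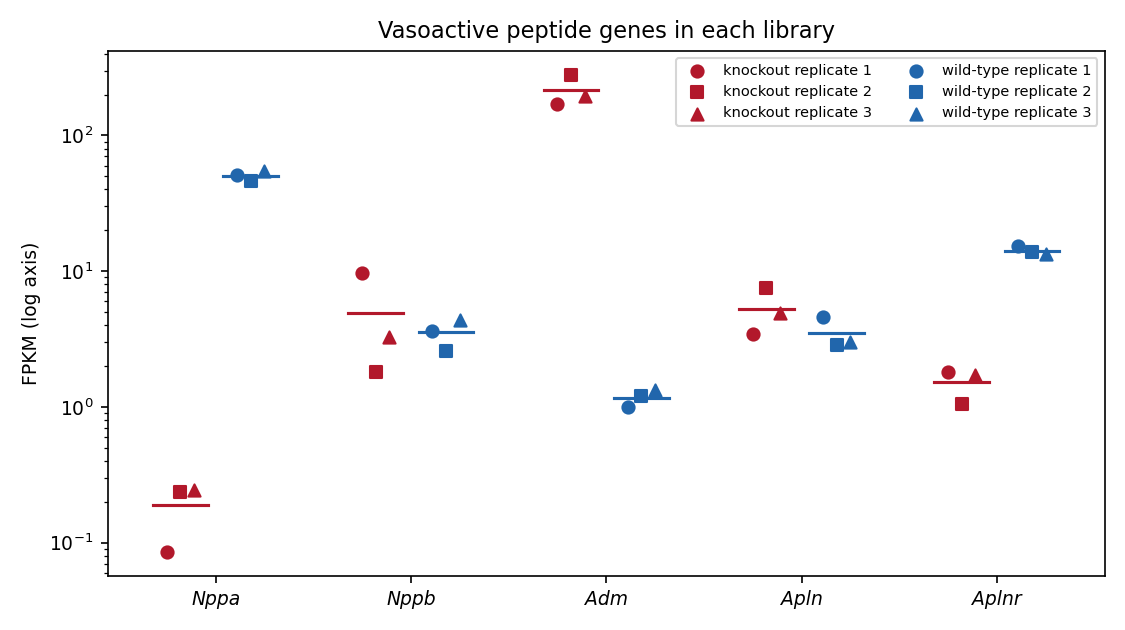
FPKM on a log axis for each of the 5 genes, with knockout libraries in red left of wild-type libraries in blue; each point is 1 library and each bar is the mean of 3. Adm stood at 172 to 280.4 FPKM in knockout and 0.991 to 1.33 FPKM in wild type, Nppa and Aplnr were lower in every knockout library, and Nppb and Apln overlapped.

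The levels of the 5 genes stood in a different order in each genotype. In knockout, Adm came first with a mean of 216 ± 57.2 FPKM (SD, n = 3 here and throughout). It was followed by Apln (5.30 ± 2.06), Nppb (4.93 ± 4.21), Aplnr (1.52 ± 0.412) and Nppa (0.189 ± 0.0892). Adm and Nppa stood clear of their neighbours in that order, while Apln, Nppb and Aplnr overlapped from 1 to the next. In wild type, Nppa came first with a mean of 50.6 ± 4.26 FPKM, followed by Aplnr (14.1 ± 1.02), Nppb (3.54 ± 0.903), Apln (3.48 ± 0.981) and Adm (1.17 ± 0.169). There only Nppb and Apln overlapped as neighbours. The gene with the highest level in wild type had the lowest in knockout, and the gene with the lowest in wild type had the highest in knockout.

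Of the natriuretic peptides, Nppa was close to 0 in knockout. Nppa had 0.0857, 0.237 and 0.243 FPKM in knockout replicates 1 to 3, against 51.4, 46.0 and 54.4 FPKM in wild-type replicates 1 to 3. Every knockout library was far below every wild-type library, and the knockout mean was 0.373% of the wild-type mean. The log2 change was −5.44 (SE 0.15, limma adjusted p = 3.72e-07), the 31st largest decrease among the 6487 genes tested. After allowing for relative depth, the knockout values stood at 1, 2.99 and 2.93 times that of replicate 1. That spacing is close to what 1, 3 and 3 fragments would give (as would whole multiples of these), so the knockout level may rest on few fragments. Nppa reached the minimum for testing through the wild-type libraries alone.

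Nppb, the neighbour of Nppa on the chromosome, did not follow it. Nppb had 9.72, 1.81 and 3.27 FPKM in knockout replicates 1 to 3, against 3.65, 2.59 and 4.38 FPKM in wild-type replicates 1 to 3. The genotypes overlapped: knockout replicate 1 was above all wild-type libraries, replicate 2 was below them all and replicate 3 lay among them. The log2 change was 0.17 with a 95% interval of −0.92 to 1.26 (SE 0.46, limma adjusted p = 0.723), so changes of nearly 1 log2 unit in either direction are within the interval. Its sign rested on knockout replicate 1, without which it was −0.37 (adjusted p = 0.195).

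Within a library, the balance of the 2 peptides therefore turned over. The log2 ratio of Nppb to Nppa (each as FPKM + 1) was 3.30, 1.18 and 1.78 in knockout replicates 1 to 3, against −3.49, −3.71 and −3.36 in wild-type replicates 1 to 3. Nppb exceeded Nppa in every knockout library, and Nppa exceeded Nppb in every wild-type library. The mean ratio differed by 5.61 (two-sided exact permutation test, p = 0.1, the smallest that 3 against 3 allows). That value is the difference between the log2 changes of the 2 genes, and Nppa alone already separated the genotypes. The test thus adds no support to the values of the 2 genes, and other gene pairs were not compared in this way.

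The pair lies in tandem on mouse chromosome 4, on the plus strand of GRCm38 in GENCODE M21. Nppb (ENSMUSG00000029019.8) spans 147985788 to 147987205 and Nppa (ENSMUSG00000041616.9) spans 148000722 to 148002079, with 13516 bases and no whole annotated gene between them. Both are protein coding with 3 exons. An antisense gene, Gm13054, overlaps Nppa on the other strand. Whether strand was used in counting is not given, so reads of that pair cannot be told apart. The 250 bases before each RefSeq start (GRCm38.p6) are shown because these neighbours had such unequal changes. Capitals mark TATAAA, the core of a TATA box, and, on either strand, GATAA, a core bound by GATA factors such as Gata4, known regulators of both genes in heart.
Nppa, chr4:148000472-148000721, plus strand: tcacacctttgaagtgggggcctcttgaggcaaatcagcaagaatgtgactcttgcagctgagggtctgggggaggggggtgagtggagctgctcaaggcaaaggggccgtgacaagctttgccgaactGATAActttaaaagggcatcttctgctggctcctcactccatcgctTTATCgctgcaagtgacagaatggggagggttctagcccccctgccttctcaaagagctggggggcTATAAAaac
Nppb, chr4:147985650-147985899, plus strand: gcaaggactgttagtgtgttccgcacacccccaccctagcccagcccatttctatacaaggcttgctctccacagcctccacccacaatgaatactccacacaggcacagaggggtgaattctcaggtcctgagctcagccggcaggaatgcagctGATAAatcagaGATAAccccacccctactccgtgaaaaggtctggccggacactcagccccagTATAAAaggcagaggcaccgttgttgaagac
Each window held 1 match to the TATA core and 2 to the GATA core, searched on both strands, with no overlap between matches. Of 32851 RefSeq promoter windows of the same length, 12.4% held the TATA core and 22.6% the GATA core. In Nppa the GATA cores began 121 and 75 bases before the start, and in Nppb 94 and 83 bases before it. The TATA core began 9 bases before the start in Nppa and 31 bases before it in Nppb. The GENCODE start of Nppb lies 112 bases before the RefSeq start used, within the window shown. The marked matches of Nppb thus lie inside the gene as GENCODE draws it, unlike those of Nppa. The motifs were picked after the sequences had been seen, so these matches describe the windows and name no site. Gata4, which is also on the list of heart muscle markers, had 0.473, 0.0438 and 0.949 FPKM in knockout, against 4.16, 2.90 and 3.63 FPKM in wild type. Its log2 change was −1.65 (SE 0.24, limma adjusted p = 0.000293). Gata4 was named after its values were seen, and a link between its level and that of Nppa or Nppb was not tested.

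Heart muscle markers moved with Nppa and not with Nppb. Of 23 on the list 15 were tested. Of these 14 were lower in knockout (against 49.2% of all genes tested) and 1, the small heat shock protein gene Hspb7, was higher. Myl3, Myh6, Myh7, Tnni3, Tbx5, Gata4 and Mybpc3 were under 1 FPKM in every knockout library, so they could be tested only as lower. The median log2 change of the 15 was −3.57, against 0.38 over all genes tested. The summed level of the 17 markers with values was 38.4 to 57.0 FPKM in knockout and 644 to 906 FPKM in wild type. Hspb7 alone had 16.8, 41.03 and 26.2 FPKM in knockout replicates 1 to 3, and without it the sum of the other 16 was 15.98 to 28.1 FPKM in knockout and 640.3 to 902 FPKM in wild type. In knockout replicates 1 to 3 the median marker was at 2.84%, 1.64% and 2.45% of wild type. Actc1, the cardiac actin gene, which skeletal muscle also expresses, had a knockout mean of 0.729 ± 0.363 FPKM and a wild-type mean of 226 ± 49.6. Tnnc1, a troponin gene of heart and slow muscle, had a knockout mean of 2.55 ± 0.889 FPKM and a wild-type mean of 114 ± 29.96. None of the 17 markers in the table was at 0 in all 3 knockout libraries. The percentage for Nppa, 0.373%, was below each of these medians, and Nppb overlapped wild type in libraries where that set was low.

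**Figure D2:**
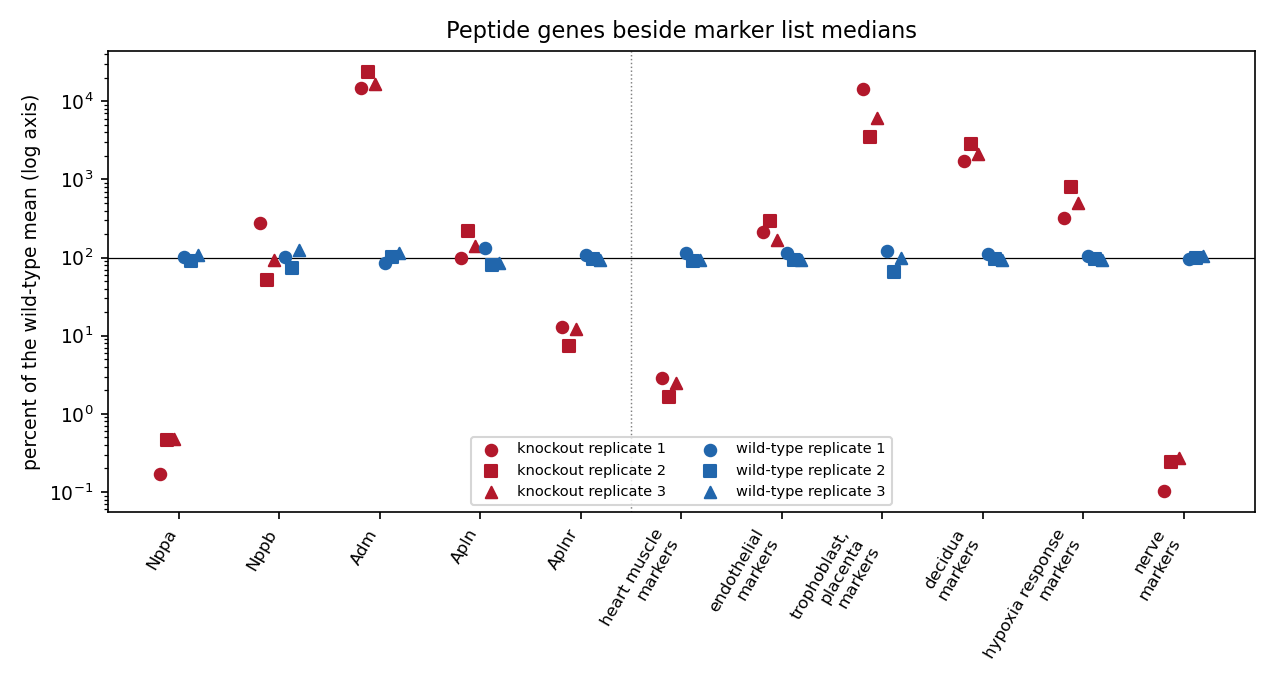
Level of each library as percent of the wild-type mean (log axis, line at 100%) for the 5 genes, left of the dotted line, and for the median gene of 6 marker lists, right of it; red is knockout and blue is wild type, and symbols mark replicates 1 to 3. Nppa and the heart and nerve lists lay far below 100%. Adm lay above it, with its knockout mean at 18413%, as did the trophoblast, decidua and hypoxia lists. The knockout medians of the decidua and hypoxia lists were well below Adm, at 1726% to 2867% and 324% to 812%. Aplnr lay below 100% where the endothelial list median was above it.

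The natriuretic list, with Nppa and Nppb in it, moved both ways. Of its 15 genes 12 had values and all 12 were tested, with 7 higher, 4 lower and Nppb not past the threshold, and a median log2 change of 0.57. Over all genes tested 47.2% were higher and 49.2% lower. Nppc, which encodes the C-type peptide made by endothelium and other tissues, had 23.1, 6.93 and 6.995 FPKM in knockout replicates 1 to 3, against 0.770, 1.21 and 1.46 FPKM in wild type (log2 change 2.44, SE 0.43, limma adjusted p = 0.000973). It was higher in every knockout library, and highest in replicate 1, as was Nppb.

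Receptors and processing enzymes of these peptides also rose. Npr1, the guanylyl cyclase receptor of the atrial and B-type peptides, had 6.45, 5.25 and 4.18 FPKM in knockout, against 2.85, 2.09 and 2.25 FPKM in wild type (log2 change 0.88, limma adjusted p = 0.00227). Corin, the protease that activates the atrial peptide precursor and that in mice is also known to act in the pregnant uterus, had 8.65, 7.97 and 12.4 FPKM in knockout, against 3.09, 2.78 and 3.04 FPKM in wild type (log2 change 1.40, limma adjusted p = 0.000201). The ligand Nppa and its activating enzyme thus changed in opposite directions. Furin, a convertase of many precursors including that of the B-type peptide, rose as well (log2 change 1.08, limma adjusted p = 0.00316).

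Npr2, the receptor of the C-type peptide, and Mme, the neprilysin gene whose protease degrades natriuretic peptides and apelin, passed only narrowly. Npr2 had 15.8, 31.2 and 17.5 FPKM in knockout, against 13.8, 13.3 and 12.6 FPKM in wild type (log2 change 0.60, limma adjusted p = 0.0491). Mme had 7.80, 11.2 and 7.73 FPKM in knockout, against 4.39, 6.91 and 6.26 FPKM in wild type (log2 change 0.53, limma adjusted p = 0.0444). The Npr2 call ended without wild-type replicate 1, 2 or 3 (limma adjusted p = 0.0965, 0.103 and 0.119) and without knockout replicate 2 (log2 change 0.31, limma adjusted p = 0.058). The Mme call ended without wild-type replicate 1 or 3 (limma adjusted p = 0.151 and 0.0778) and without knockout replicate 2 (limma adjusted p = 0.0953).

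Downstream of cyclic GMP the list moved both ways. The kinase gene Prkg1 and the phosphodiesterase genes Pde5a and Pde9a, whose enzymes break down cyclic GMP, fell, with log2 changes of −1.17, −1.56 and −2.63. The other kinase gene, Prkg2, was higher, at 5.42, 7.43 and 5.81 FPKM in knockout, against 1.20, 1.28 and 1.11 FPKM in wild type (log2 change 1.71, limma adjusted p = 2.29e-05). Together with Nppa, the genes Prkg1, Pde5a and Pde9a made up the 4 lower genes of the list.

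**Figure D3:**
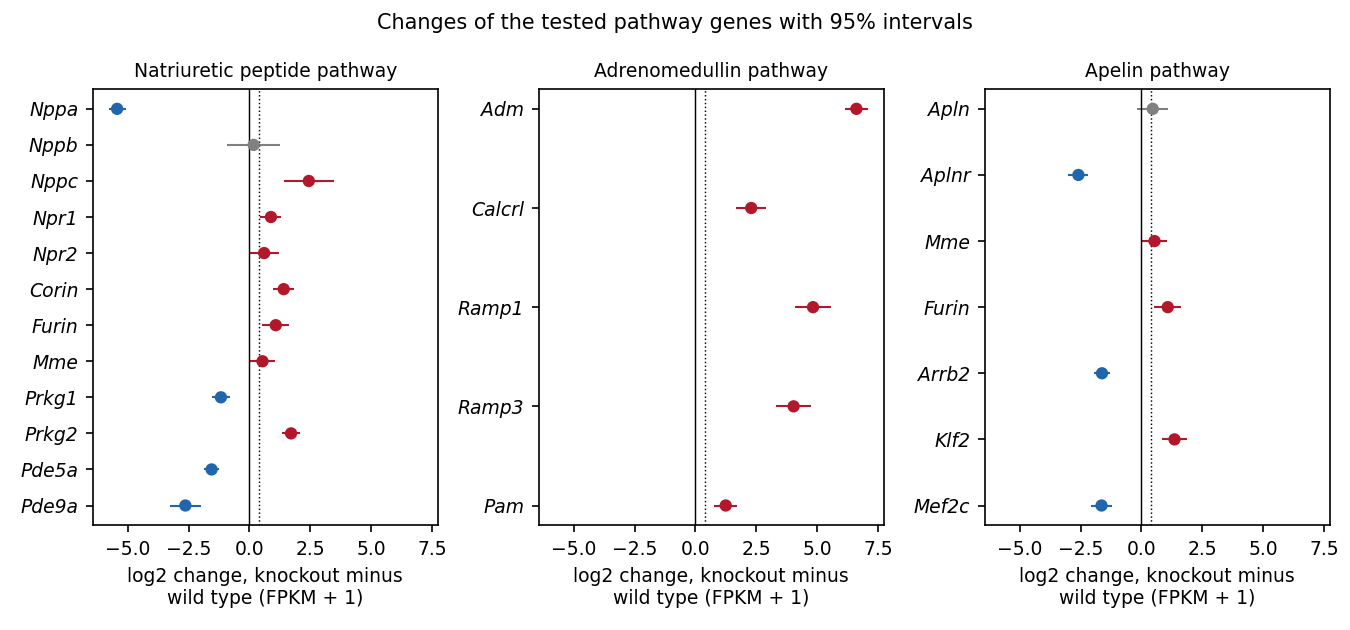
Log2 change (knockout minus wild type, FPKM + 1) with its 95% limma interval for each tested gene of the natriuretic, adrenomedullin and apelin lists; red genes were higher, blue lower and grey not past the threshold, and the dotted line is the median of all genes tested, 0.38. Adm has the largest increase, 6.61, and Nppa the largest decrease, −5.44; Mme and Furin are on 2 lists.

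On the log2(FPKM + 1) scale Adm had the largest change of the 5 genes. With a pseudocount of 0.1 its log2 change was 7.38 and that of Nppa, of opposite sign, was −7.51. Adm had 172, 280.4 and 195 FPKM in knockout replicates 1 to 3, against 0.991, 1.20 and 1.33 FPKM in wild-type replicates 1 to 3. Each knockout library was over every wild-type library, and the mean was 184-fold higher. The log2 change was 6.61 (SE 0.20, 95% interval 6.13 to 7.09, limma adjusted p = 5.02e-07), the 59th largest increase among the genes tested. By level, Adm was among the 222 most abundant of the 7101 genes in every knockout library, at places 222, 148 and 202, and at places 5962, 5721 and 5641 in wild type.

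Adm (ENSMUSG00000030790.15) lies on chromosome 7, 110627661 to 110629820, on the plus strand of GRCm38, and is protein coding. An antisense gene, Gm28863, spans it on the other strand, with the same limit on telling reads apart. The 250 bases before the RefSeq starts of Adm and Apln held no match to ACGTG on either strand, the core of the element that hypoxia-inducible factors bind, nor to the TATA or GATA core. Of the 32851 windows 16.6% held ACGTG, and the absence says only that these letters are not in that stretch.

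The receptor parts and the amidating enzyme of adrenomedullin rose alongside the peptide. Of 15 genes on this list 6 had values and 5, Adm itself among them, were tested. All 5 were higher, against 47.2% of all genes tested. Their median log2 change, with Adm counted, was 4.03, against 0.38 over all genes tested. Calcrl, the receptor, had 16.6, 19.5 and 9.82 FPKM in knockout, against 1.76, 2.32 and 2.64 FPKM in wild type (log2 change 2.29, SE 0.26, limma adjusted p = 8.63e-05). Ramp3, which makes Calcrl an adrenomedullin receptor, had 98.1, 116 and 52.2 FPKM in knockout, against 4.96, 4.30 and 3.46 FPKM in wild type (log2 change 4.03, SE 0.30, limma adjusted p = 9.85e-06). In both, every knockout library stood above the wild-type libraries, and replicate 3 was the lowest of the knockout libraries.

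Ramp1, which makes Calcrl a receptor of calcitonin gene-related peptide, had 34.05, 84.8 and 55.03 FPKM in knockout, against 0.868, 1.14 and 0.832 FPKM in wild type (log2 change 4.83, SE 0.31, limma adjusted p = 5.17e-06). Pam, whose enzyme amidates adrenomedullin into its active form, had 52.9, 62.2 and 37.3 FPKM in knockout, against 21.9, 20.1 and 19.4 FPKM in wild type (log2 change 1.24, limma adjusted p = 0.000592). Adm2, the related peptide intermedin, was too low to be tested, at 0.686, 2.11 and 1.48 FPKM in knockout and 0.108, 0.232 and 0.102 FPKM in wild type. Ramp2, the other Ramp protein of adrenomedullin receptors, was not analysed here.

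The balance of ligand and receptor differed as well. The log2 ratio of Adm to Calcrl was 3.29, 3.78 and 4.18 in knockout replicates 1 to 3, against −0.47, −0.59 and −0.65 in wild-type replicates 1 to 3. In knockout every library held more Adm than Calcrl, and in wild type every library held less. The means differed by 4.32 (two-sided exact permutation test, p = 0.1, the smallest possible).

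**Figure D4:**
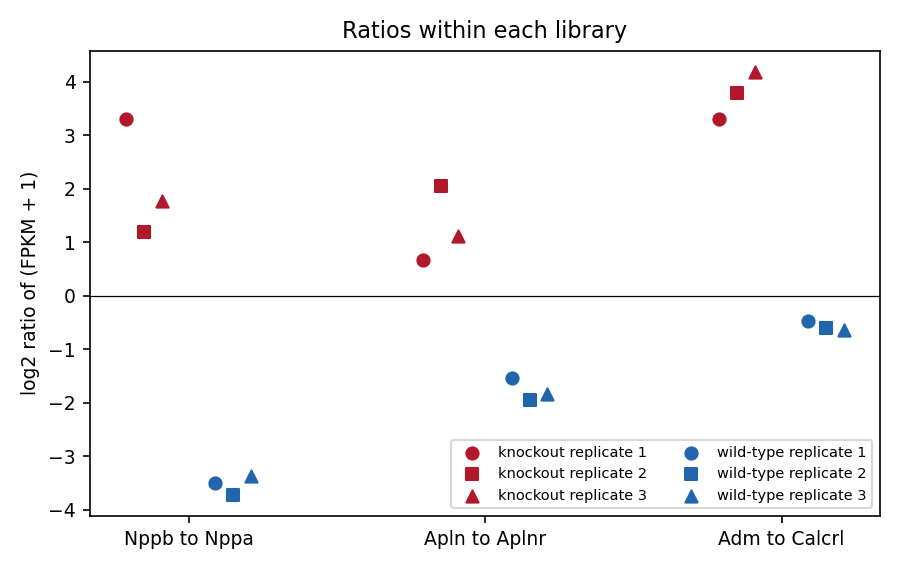
Log2 ratio of FPKM + 1 within each library for Nppb to Nppa, Apln to Aplnr and Adm to Calcrl, with knockout in red left of wild type in blue and symbols for replicates 1 to 3. All 3 ratios were above 0 in every knockout library and below 0 in every wild-type library.

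Other genes known to rise in low oxygen were higher in the same libraries as Adm. Of 20 hypoxia response genes listed, 10 were tested and all 10 were higher in knockout, against 47.2% of all genes tested. Their median log2 change was 2.31, against 0.38 over all genes tested. The summed level of the 11 with values was 643 to 919.9 FPKM in knockout and 155 to 176 FPKM in wild type. Car9, the gene with values that was too low to be tested, overlapped between genotypes. Slc2a1, a glucose transporter gene, had a knockout mean of 203 ± 68.5 FPKM and a wild-type mean of 52.4 ± 7.16. Bnip3, a mitophagy receptor gene, had a knockout mean of 180.2 ± 33.9 FPKM and a wild-type mean of 22.7 ± 1.85. The log2 change of Adm was larger than that of each of these 10 genes, of which Ndrg1 had the largest (4.68). Decidual and trophoblast transcripts were high in these same libraries, as given above. Prl8a2, a hormone gene of the decidua, had a knockout mean of 6614 ± 519.6 FPKM and a wild-type mean of 1.12 ± 0.528.

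Of the apelin pair, the receptor fell and the ligand did not pass the test. Aplnr had 1.81, 1.05 and 1.71 FPKM in knockout replicates 1 to 3, against 15.3, 13.7 and 13.3 FPKM in wild-type replicates 1 to 3. All knockout libraries were below all wild-type libraries, and the knockout mean was 10.8% of the wild-type mean (log2 change −2.59, SE 0.17, limma adjusted p = 5.86e-06). Aplnr (ENSMUSG00000044338.9) lies on chromosome 2, 85136225 to 85139923, on the plus strand of GRCm38.

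Apln had 3.47, 7.53 and 4.90 FPKM in knockout replicates 1 to 3, against 4.61, 2.84 and 2.99 FPKM in wild-type replicates 1 to 3. Knockout replicates 2 and 3 were above all wild-type libraries and replicate 1 lay among them. The log2 change was 0.46 with a 95% interval of −0.18 to 1.10 (SE 0.27, limma adjusted p = 0.134). Apln passed as higher without knockout replicate 1 (log2 change 0.68, limma adjusted p = 0.0323), and without knockout replicate 2 its change was 0.22 (limma adjusted p = 0.347). It also passed after quantile normalization (0.97, limma adjusted p = 0.00637) and trimmed-mean rescaling (0.79, limma adjusted p = 0.0177). The median log2 change over all genes tested was 0.01 and 0.67 under these, so the second value is close to the shift of the whole table. Apln (ENSMUSG00000037010.7) lies on chromosome X, 48025146 to 48034853, on the minus strand of GRCm38.

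The log2 ratio of Apln to Aplnr was 0.67, 2.06 and 1.12 in knockout replicates 1 to 3, against −1.54, −1.94 and −1.84 in wild-type replicates 1 to 3. The receptor transcript exceeded that of the ligand in every wild-type library, and the ligand exceeded the receptor in every knockout library. The means differed by 3.06 (two-sided exact permutation test, p = 0.1, the smallest possible). As Aplnr alone already separated the genotypes, the test adds no support to the values of the 2 genes.

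The apelin list, with Apln and Aplnr in it, was split. Of 12 genes 7 were in the table and tested, with 3 higher, 3 lower (Aplnr among them) and Apln not past the threshold. Among all genes tested 47.2% were higher and 49.2% lower. The list median log2 change, 0.46, was that of Apln itself. Klf2, an endothelial transcription factor gene known to be induced by apelin signalling, had 12.2, 17.9 and 12.3 FPKM in knockout, against 6.09, 4.73 and 3.87 FPKM in wild type (log2 change 1.36, limma adjusted p = 0.000539). Klf2 rose in libraries where Aplnr fell. Arrb2, an arrestin gene whose protein binds activated receptors, and Mef2c, a transcription factor gene of muscle and vessels, fell, with log2 changes of −1.62 and −1.64. Furin and Mme, which are also on the natriuretic list, were the other 2 higher genes. Apela, which encodes Elabela, was not analysed here.

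Most endothelial markers moved the other way from Aplnr, which is itself expressed in endothelium. Of 22 on the list 14 were tested, with 9 higher, 2 lower and 3 (Emcn, Egfl7 and Ecscr) not past the threshold. Of all genes tested 47.2% were higher and 49.2% lower. The 14 had a median log2 change of 1.03, against 0.38 over all genes tested. Their summed level was 640.4 to 769 FPKM in knockout and 144 to 174 FPKM in wild type. Cdh5, the endothelial cadherin gene, had a knockout mean of 308 ± 9.51 FPKM and a wild-type mean of 19.8 ± 2.60, and Pecam1, an adhesion gene, had a knockout mean of 93.6 ± 25.1 FPKM and a wild-type mean of 17.2 ± 2.25. The 2 markers that fell with Aplnr were the transcription factor genes Sox7 and Sox18. Sox7 was under 1 FPKM in every knockout library, so it could be tested only as lower. Sox18 had 4.09, 4.25 and 3.32 FPKM in knockout, against 14.5, 10.9 and 8.97 FPKM in wild type (log2 change −1.33, limma adjusted p = 0.000402).

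Among other vasoactive systems more genes rose than fell. Of 39 listed, 22 were in the table and 19 were tested, with 13 higher, 5 lower and Ece1 not past the threshold. For many of these the minimum for testing fixed the direction. All 5 lower genes were under 1 FPKM in every knockout library. Of the higher genes, Edn1, Edn2, Ren1, Ace, Bdkrb2, Nos2 and Ptgs2 were under 1 FPKM in every wild-type library. The shares over all genes tested were 47.2% higher and 49.2% lower. The median log2 change of the 19 was 1.32, against 0.38 over all genes tested. Ece1, which encodes an enzyme that activates endothelins, had 16.8, 40.3 and 18.7 FPKM in knockout, against 14.8, 13.9 and 13.4 FPKM in wild type (limma adjusted p = 0.0623). It passed after trimmed-mean rescaling (log2 change 1.08, limma adjusted p = 0.00913) and without knockout replicate 1 (log2 change 0.92, limma adjusted p = 0.0227), and its log2 change of 0.70 was 0.31 without knockout replicate 2. Of the endothelin peptides, Edn1 had 4.19, 16.2 and 4.29 FPKM in knockout, against 0.998, 0.572 and 0.984 FPKM in wild type (log2 change 2.08, SE 0.45, limma adjusted p = 0.00288). Edn2 rose as well (log2 change 2.66, limma adjusted p = 4.46e-05). Edn3, known for its part in neural crest development, fell to 0.145, 0.0336 and 0.0353 FPKM in knockout, against 5.81, 6.40 and 5.39 FPKM in wild type (log2 change −2.68, SE 0.12, limma adjusted p = 1.04e-06). The constrictor endothelins Edn1 and Edn2 and the dilator Adm were thus higher in the same libraries.

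The renin-angiotensin genes moved both ways. Ren1, the renin gene, had 13.5, 2.93 and 13.6 FPKM in knockout, against 0.319, 0.214 and 0.0752 FPKM in wild type (log2 change 2.97, limma adjusted p = 0.000651), with replicate 2 well below the others (3.60 without it). Ace, the converting enzyme gene, had 8.32, 12.9 and 13.04 FPKM in knockout, against 0.477, 0.393 and 0.427 FPKM in wild type (log2 change 3.09, limma adjusted p = 4.2e-06). The receptor genes Agtr1a and Agtr2 fell, with log2 changes of −1.10 and −3.0001, and with Agtr2 at 0.0756, 0 and 0.0183 FPKM in knockout and 8.05, 8.69 and 5.39 FPKM in wild type. Agt, the angiotensin precursor, was too low to be tested.

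The tested genes of nitric oxide and prostanoid synthesis were higher. Nos2, the inducible nitric oxide synthase gene, had 17.5, 9.09 and 14.98 FPKM in knockout, against 0.285, 0.226 and 0.409 FPKM in wild type (log2 change 3.46, limma adjusted p = 6.76e-06). The nitric oxide receptor subunit genes Gucy1a3 and Gucy1b3 rose by 1.09 and 1.34 on the log2 scale. Ptgs2, the inducible cyclooxygenase gene, had 3.04, 17.1 and 8.97 FPKM in knockout, against 0.0595, 0.128 and 0.112 FPKM in wild type (log2 change 3.03, SE 0.48, limma adjusted p = 0.000549). The remaining lower genes were Tbxa2r, a thromboxane receptor gene, and Vipr2, a receptor gene of vasoactive intestinal peptide (log2 changes −1.29 and −1.14). Over the 4 vasoactive lists without the 5 genes, 36 of 74 genes were tested, of which 25 were higher (against 47.2% of all genes tested), 10 lower (against 49.2%) and 1 not past the threshold. These counts include the genes of the other vasoactive systems whose direction the minimum for testing had fixed.

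The 5 genes also differed in how they varied among the knockout libraries. Nppb in knockout replicate 1 was 3.83 times its mean in replicates 2 and 3, an excess reached by 1.01% of the 5234 genes with a knockout mean of at least 1 FPKM. Nppc followed the same pattern, with 3.32 times, an excess reached by 1.39% of these genes. Trophoblast markers varied in that way in part. Prl2c2, a proliferin gene of trophoblast giant cells, was 7.65 times as high in replicate 1, while Prl3b1, the placental lactogen II gene, was 1.21 times as high. Excesses as large were reached by 0.32% and 18.9% of the 5234 genes. Of the 13 trophoblast markers measured, 6 were highest in knockout replicate 1, against 23.2% of all genes, 6 were highest in replicate 3, against 36.0%, and 1 was highest in replicate 2, against 40.8%.

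Adm and Apln were both highest in knockout replicate 2 and lowest in replicate 1. All 6 genes of the adrenomedullin list and 6 of the 7 of the apelin list were highest in replicate 2, against 40.8% of all genes. So were 11 of 16 decidua markers, 10 of 14 endothelial markers and 7 of 11 hypoxia response genes. Aplnr was lowest in that library. The part of any of these tissues in the variation was not tested.

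**Figure D5:**
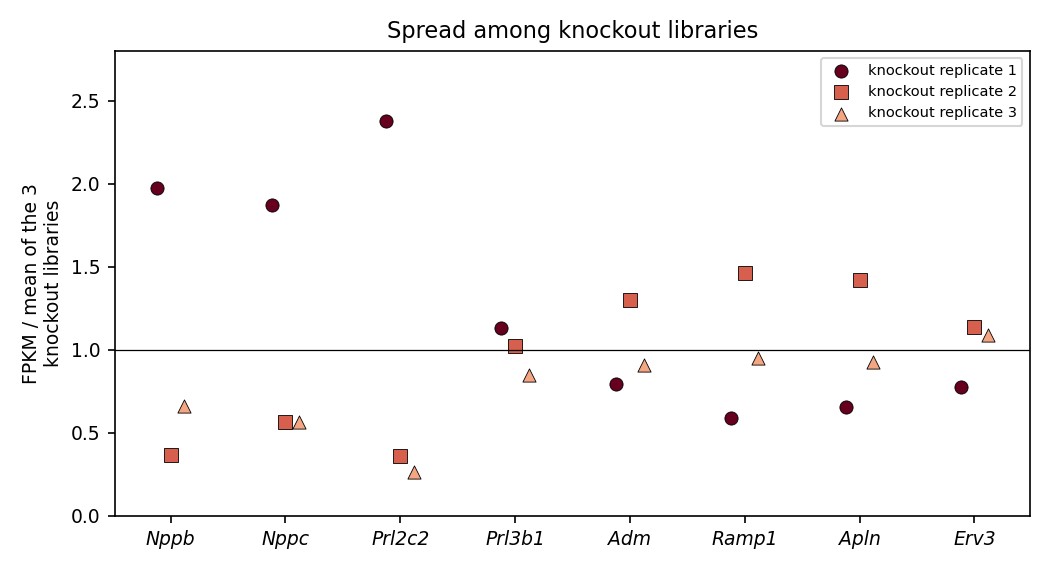
FPKM of each knockout library divided by the mean of the 3 knockout libraries, for Nppb, Nppc and the trophoblast genes Prl2c2 and Prl3b1, then for Adm, Ramp1, Apln and the decidua list gene Erv3. Nppb, Nppc and Prl2c2 stand out in replicate 1, while Adm, Ramp1 and Apln are highest in replicate 2.

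The genes whose pattern was most like each of the 5 were found by Pearson's r of log2(FPKM + 1) over the 6 libraries, as a description. For Nppa they were Msi1 (r = 0.9999), Meaf6 and Clip3, but 1038 of 5061 genes had r over 0.99, a likeness shared by genes that separate the genotypes cleanly. For Adm they were Samd9l, Ctso and Lamp2, and 638 genes had r over 0.99. For Aplnr they were Shisa2, Adgrl1 and Pcp4l1, and 640 genes had r over 0.99. Nppb and Apln, which did not separate the genotypes, had fewer likenesses. The closest to Nppb were Slc46a1 (r = 0.94), Bcat1 (r = 0.94) and Lama1 (r = 0.91), and 7 of 5062 genes had r over 0.9, each of the 3 named being highest in knockout replicate 1. Slc46a1 had 15.5, 3.27 and 5.28 FPKM in knockout, against 4.78, 3.48 and 4.33 FPKM in wild type. The closest to Apln were Gyg (r = 0.98), 1500011K16Rik (r = 0.98) and Gusb (r = 0.98), and 56 of 5061 genes had r over 0.9. Gyg had 26.4, 52.4 and 31.1 FPKM in knockout, against 30.4, 22.0 and 23.1 FPKM in wild type.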

How the data were processed

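The deposited values of 6 libraries carry no unit and were taken as FPKM computed by the authors, since Cufflinks 2.1.1 is the only quantifier in the submitters' processing notes, which also list the aligner TopHat2 2.0.8 and the builds mm9 and mm10 (without roles). How the genes were chosen is not stated there. FPKM is relative to a whole library, so a library rich in some transcripts shows lower values for the others.

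Values were tested as log2(FPKM + 1) with limma 3.58.1 in R 4.3.3 (eBayes with trend and robust, genotype as the only term, two-sided) for the 6487 genes that reached 1 FPKM in 3 or more libraries, with Benjamini-Hochberg adjustment over these and a threshold of 0.05. The design was 3 knockout against 3 wild-type libraries. Ratios within libraries were compared by an exact permutation test. List symbols not in the table were looked up by synonym. The 5 genes and the lists were chosen with earlier results of these data known, so that their directions are not independent evidence. Named genes were the 5, any gene of the vasoactive lists and the 2 most abundant genes of each marker list. Also named were the 3 genes most like each of the 5, among those whose mean reached 5 FPKM in knockout or wild type. Gata4, Hspb7, Ndrg1, Sox7, Sox18, Car9 and markers named for a small count, a lost call or low values in 1 genotype were added after their values were seen. Of the 5 genes 4 matched a RefSeq promoter window (GRCm38.p6); positions are from GENCODE M21. Scripts were tested on simulated data. Alternatives are given in the closing section.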

Additional observations from a re-analysis of the deposited data

How the results depend on the processing

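Adm, Nppa and Aplnr kept their direction and stayed past the threshold under all 14 alternatives, with log2 changes of 5.13 to 7.38, −7.51 to −3.42 and −3.16 to −1.55. With 1 library left out at a time they were 6.41 to 6.76, −5.51 to −5.38 and −2.68 to −2.45. For Nppb that range was −0.37 to 0.59, with the sign reversed only without knockout replicate 1 (−0.37), and it passed under none of the 13 alternatives that tested it (adjusted p = 0.146 to 0.984). For Apln the range was 0.22 to 0.68. It passed after quantile normalization (0.97), after trimmed-mean rescaling (0.79, where the median over all genes tested was 0.67) and without knockout replicate 1 (0.68). The differences in the log2 ratios of Nppb to Nppa, Apln to Aplnr and Adm to Calcrl were 7.67, 3.72 and 4.70 with a pseudocount of 0.1, and 3.56, 1.82 and 3.67 with a pseudocount of 5. That of Adm to Calcrl was 3.94 after quantile normalization. With 1 library left out they lay at 5.004 to 6.06, 2.67 to 3.36 and 4.11 to 4.55. With a filter of 5 FPKM fewer genes were tested, which left 2 lower genes on the natriuretic list and 7 higher and 2 lower among other vasoactive systems. Of the single list genes, Npr2 lost its call under 7 alternatives and Mme under 3. Besides Nppb, no gene of the 4 vasoactive lists changed direction under any alternative. Among the marker genes Igfbp1, at a log2 change of 0.02, changed direction with a pseudocount of 0.1 (−0.98) and with libraries left out, where it lay at −1.33 to 0.93. Emcn, Egfl7 and Ecscr passed after trimmed-mean rescaling and without knockout replicate 3. Some markers called higher lost their call: Wnt4 under 6 alternatives, Alpl under 4, Icam2 under 3, Il11ra1 under 2, and Bmp2 and Vegfa under 1 each. The labels give no shared origin for same-numbered libraries, whose deviations from the group means correlated at −0.06, 0.08 and 0.11 for numbers 1 to 3, and not every library correlated best with its own number. With the replicate number as a block 6230 genes passed, against 6256, no call among the 5 genes changed, and Ece1 passed (adjusted p = 0.0456). Depth in reads is not given, so no counting interval is attached.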
